A study of Danio rerio with 10 samples.

Results

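Aminoacyl-tRNA synthetases are the enzymes that join each amino acid to its tRNA before translation. Of 36 synthetase symbols looked for among the 32103 gene IDs of the deposited table, 34 had a row, and yars2 had 2, which gave 35 rows. Rows were taken by symbol: 32 symbols matched exactly, WARS and EARS2 matched only when upper and lower case were treated alike, and lars and tars2 matched no row. Symbols that end in 2 name the mitochondrial enzymes (14 with a row), and the other 20 were taken as cytosolic. The table gives hars under an ID whose current symbol is HARS2, so its place among the cytosolic genes rests on the older symbol alone.

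The libraries hold ribosome-depleted total RNA of gata1-positive erythroid cells from zebrafish embryos at 24 hours post fertilization. The 5 sf3b1 mutant libraries carry the numbers 1, 3, 4, 5 and 6, and the 5 sibling libraries the numbers 2 to 6. The mutation is in sf3b1, which encodes a core protein of the splicing machinery; its allele, the zygosity of either group, the way gata1-positive cells were marked and the number of embryos behind a library are unstated in the labels. The library titled as wild type 2 has a mutant genotype tag, and it was kept as sibling 2 by its title.

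Animal cells keep 2 sets of synthetases. The cytosolic set feeds the ribosomes that translate nuclear messages, while the mitochondrial set is encoded in the nucleus, imported, and charges the tRNAs that translate the few proteins of the mitochondrial genome, most of them parts of the respiratory chain. In vertebrates the glycine and lysine enzymes of both compartments come from 1 gene each, gars and kars. Several cytosolic enzymes sit together in the multi-synthetase complex on the scaffold proteins of aimp1, aimp2 and eef1e1. In mammals the stress factor ATF4 raises many of the cytosolic synthetase genes together with genes of amino acid supply. Red cell precursors make large amounts of globin, so charged tRNA is in steady demand in this lineage.

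The values are FPKM, fragments scaled by transcript length and by the mapped fragments of the library, so levels of different genes can be set side by side per length. The sums per library ran from 293815.9 to 408230.2 in mutants and from 345317.4 to 422869.5 in siblings. Absolute depth is unknown. The most common ratio of low values placed the depth relative to mutant 1 between 0.578 (mutant 3) and 1.26 (sibling 6). In each library other than mutant 1 only 7.27 to 9.23% of the low rows compared lay at or near that ratio, so these depths are rough. sf3b1 itself measured 17.6, 16.0, 20.6, 19.4 and 21.3 FPKM in the mutant libraries, against 41.0, 36.3, 42.3, 37.5 and 43.9 FPKM in the siblings, and sibling 2 was with the other siblings (log2 fold change -1.05, limma adjusted p = 0.000326). Separate clutches are not mentioned in the labels; the p-values therefore measure the spread between these libraries alone, and part of that spread may be technical. Changes were tested with limma on log2(FPKM + 1) over the 13003 rows that averaged 1 FPKM or more, and a row was called at a Benjamini-Hochberg adjusted p under 0.05.

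Markers of erythroid and of other cells differed between the groups. Over all tested rows 8.74% fell and 14.3% were called in either direction, the shares to set beside each count here. Of the markers of neutrophils and macrophages 7 of 11 tested fell (mpx, lyz, mpeg1.1, mfap4, npsn, coro1a and lcp1). The summed level of the neutrophil and macrophage markers was 162.3 to 346.3 FPKM in mutants and 406.4 to 764.4 FPKM in siblings. Of 15 erythroid markers 3 fell (epb41b, rhag and urod), with sums of 2736 to 9305 FPKM in mutants and 5406 to 23652.5 FPKM in siblings. The median log2 fold change of these 15 rows was -1.06, and only tal1 had a positive estimate (0.0028). Of 8 tested muscle markers 2 fell (acta1b and ckma), with sums of 58.8 to 187.6 FPKM in mutants and 95.9 to 386.3 FPKM in siblings. Epidermal markers (1 of 17 fell, pfn1) summed to 404.4 to 1229 FPKM in mutants and 442.5 to 910.9 FPKM in siblings, highest in mutant 1 and sibling 2. Mutant 1 and sibling 2 also had the lowest erythroid sums and the highest muscle and neural sums of their groups. The median log2 fold change of the tested epidermal rows was 0.32, against -0.77 for pfn1. The call of epb41b (limma adjusted p = 0.0466) held in 9 of 22 alternatives and ended without any 1 library other than sibling 2 (0.0519 to 0.105). With sibling 2 counted as a mutant the calls of acta1b, ckma, pfn1, mpeg1.1, mfap4, coro1a and lcp1 ended (0.0716 to 0.400), and that of pfn1 also ended without mutant 3, sibling 4 or sibling 5 (0.0527 to 0.0661) and under quantile normalization (0.110). Of 12 endothelial and 9 neural markers 0 were called (neural sums 40.9 to 119.2 FPKM in mutants and 61.3 to 114.0 FPKM in siblings, endothelial sums 149.97 to 214.2 FPKM in mutants and 146.5 to 263.5 FPKM in siblings). Among these lists krtt1c19e, icn2, agr1, tnnt3a, marco and both ascl1b rows were listed at 0 in at least 1 library, and no yolk or hatching gland marker reached a mean of 1 FPKM. The part of cell makeup in the synthetase results was not tested. In such bulk samples fewer cells of a type and less RNA per cell cannot be told apart.

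By mean over the 10 libraries, the cytosolic synthetases were all expressed above the mitochondrial ones. Their means over the 10 libraries ran from 6.83 FPKM (yars, the tyrosine enzyme) to 121.6 FPKM (nars, the asparagine enzyme), with a median of 16.1 FPKM, and all 20 passed the filter on low values. The mitochondrial rows ran from 0.207 FPKM for the second yars2 row to 6.03 FPKM for fars2, the phenylalanine enzyme, with a median of 1.503 FPKM. Of these 15 rows 11 passed the filter and aars2, rars2, sars2 and the second yars2 row did not. The median of all tested rows was 4.75 FPKM. Within mutants alone the order was not complete, since fars2 averaged 7.25 FPKM and the cytosolic rars 6.75 FPKM. nars alone made up 23.0 to 28.3% of the summed cytosolic FPKM in mutant libraries and 23.2 to 29.1% in sibling libraries. The cytosolic sum was 429.2 ± 61.6 FPKM in mutants and 514.3 ± 71.8 FPKM in siblings, and the mitochondrial sum 32.4 ± 2.63 FPKM in mutants and 27.7 ± 4.21 FPKM in siblings (SD, n = 5 each). The ranges of the groups overlapped for both sums, at 366.6 to 514.6 FPKM in mutants and 423.6 to 607.2 FPKM in siblings for the cytosolic genes, and 28.6 to 35.2 FPKM in mutants and 23.4 to 33.5 FPKM in siblings for the mitochondrial ones.

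**Figure D1:**
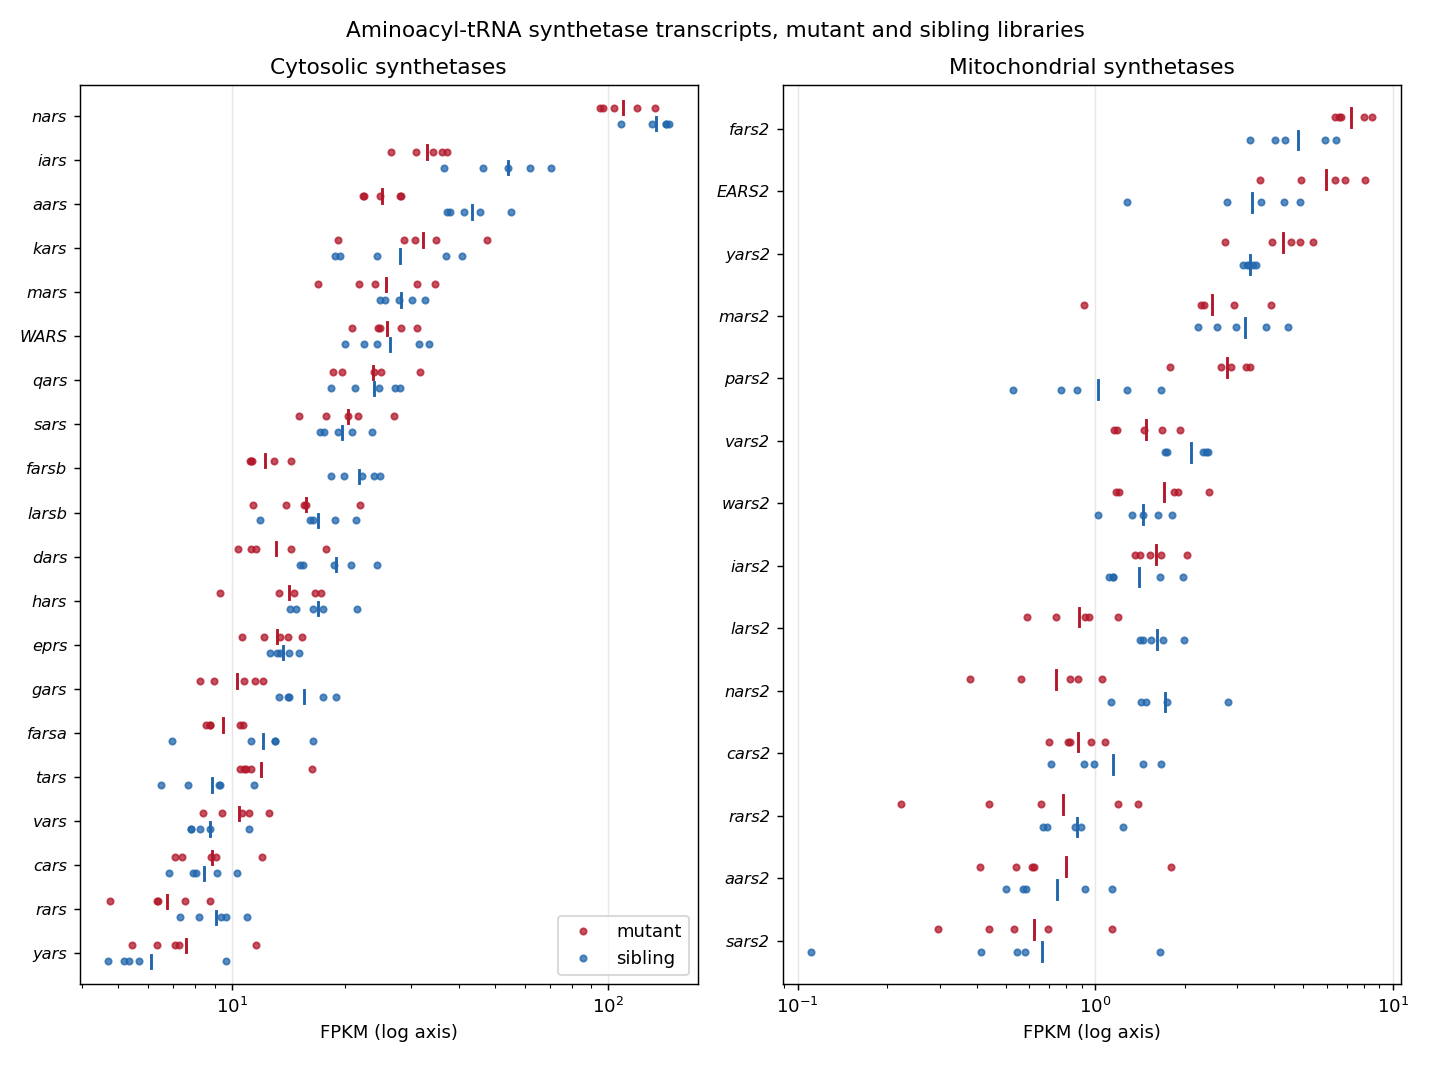
FPKM of each synthetase row in every library on a log axis, cytosolic genes left and mitochondrial genes right, sorted by mean level; dots are libraries (mutant above sibling), short bars are group means, and the second yars2 row is left out. The axes of the panels differ. Over the 10 libraries cytosolic means ran from 6.83 to 121.6 FPKM, and no mitochondrial mean was above 6.03 FPKM.

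Most synthetase transcripts were not called, and the called ones lay in both compartments. Of 20 cytosolic rows 4 fell in mutants (farsb, aars, iars and gars) and 0 rose, while 8.74% of all tested rows fell. That share includes many rows lower than any cytosolic synthetase. Among rows averaging 5 FPKM or more, a fit that kept all 20 cytosolic rows, 755 of 6284 rows fell, and the same 4 cytosolic rows. Of 11 tested mitochondrial rows 1 rose (pars2) and 0 fell, 9.09% rising beside 5.59% of all tested rows. These counts place gars, which fell, and kars among the cytosolic rows only, although each gene serves both compartments. Over both compartments 5 of 31 rows were called, 16.1%, close to the 14.3% of all tested rows, so the number of calls does not set the family apart. At an unadjusted p under 0.05, limma gave 6 lower and 1 higher cytosolic rows and 2 lower and 3 higher mitochondrial rows, beside 17.6% lower and 11.4% higher among all tested rows. The median log2 fold change was -0.13 for cytosolic and 0.12 for mitochondrial rows, against -0.06 for all tested rows. The cytosolic estimates ran from -0.78 to 0.40 and the mitochondrial ones from -0.63 to 0.91. The difference between the compartments was not tested. All 5 calls held without both mutant 1 and sibling 2. With sibling 2 counted as a mutant, as its tag says, 2 cytosolic rows fell and 0 mitochondrial rows rose.

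**Figure D2:**
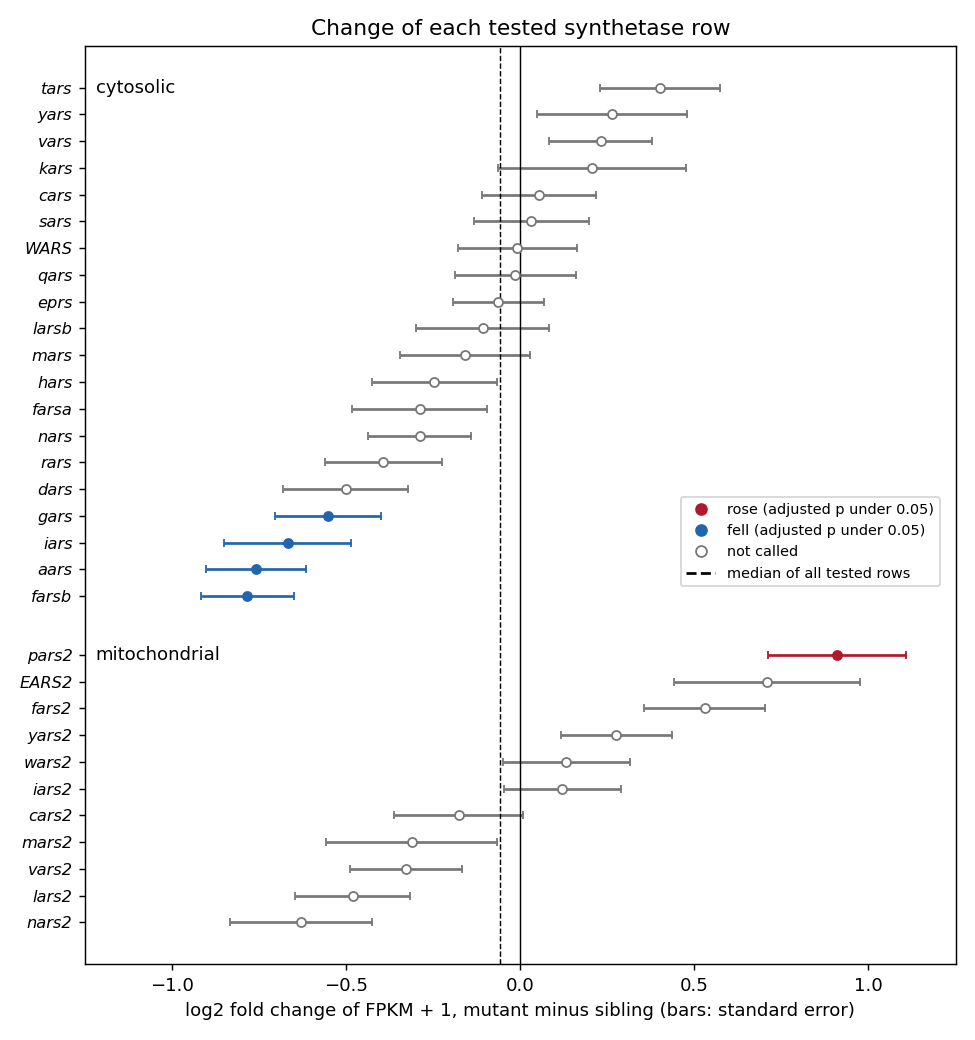
Log2 fold change of FPKM + 1, mutant minus sibling, for the 31 tested rows with its standard error (bars); filled points passed the threshold and the dashed line is the median of all tested rows (-0.06). The filled points are 4 cytosolic genes on the left and pars2, at 0.91, on the right.

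The strongest fall among the cytosolic genes was that of farsb, which encodes the beta subunit of phenylalanine-tRNA synthetase, an enzyme built from alpha and beta subunits. farsb (ENSDARG00000016864, GRCz10 chromosome 15, 42308539 to 42327478) lay at 14.3, 11.2, 11.3, 13.0 and 11.2 FPKM in mutants and at 22.2, 18.3, 24.8, 19.9 and 23.9 FPKM in siblings. Every mutant library was below every sibling library. The means were 12.2 ± 1.40 FPKM in mutants and 21.8 ± 2.70 FPKM in siblings (SD, n = 5 each; log2 fold change -0.78, SE 0.13, limma adjusted p = 0.00268). The alpha subunit gene farsa lay at 8.53, 8.75, 10.5, 10.7 and 8.77 FPKM in mutants, against 6.93, 13.0, 13.1, 11.3 and 16.5 FPKM in siblings. It was not called (log2 fold change -0.29, SE 0.19, limma adjusted p = 0.366), and sibling 2 held the lowest of all its values. The ratio of farsb to farsa was 1.08 to 1.68 in mutants and 1.41 to 3.20 in siblings, and these ranges overlapped. The call of farsb ended only with sibling 2 counted as a mutant (adjusted p = 0.0779).

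aars, the alanine enzyme, fell to a similar degree. aars (ENSDARG00000069142, chromosome 18, 18647207 to 18678385) had 22.3, 22.4, 28.0, 28.1 and 24.8 FPKM in mutants, against 37.3, 37.9, 45.5, 41.4 and 55.0 FPKM in siblings. The highest mutant value was well under the lowest sibling value. Its means were 25.1 ± 2.87 FPKM in mutants and 43.4 ± 7.25 FPKM in siblings (SD, n = 5 each; log2 fold change -0.76, SE 0.14, limma adjusted p = 0.00534). Of the called synthetases it was the only one called under every alternative tried, with adjusted p from 0.00283 to 0.0355 over 22 settings.

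iars and gars fell with less certainty. iars (ENSDARG00000007955, chromosome 11, 1311033 to 1365873), the isoleucine enzyme and second highest of the cytosolic genes by mean level, had 26.5, 30.8, 34.3, 37.2 and 36.2 FPKM in mutants, against 36.5, 46.6, 62.0, 54.3 and 70.6 FPKM in siblings. The groups touched, since sibling 2 at 36.5 FPKM lay below mutant 5 at 37.2 FPKM (log2 fold change -0.67, SE 0.18, limma adjusted p = 0.0307). It passed the threshold in 14 of 22 alternatives: leaving out mutant 1, 3 or 4 or sibling 4, 5 or 6 took the adjusted p to between 0.0507 and 0.0769, and it was also missed with no filter on low values (0.0515) and under median of ratios scaling (0.0556). gars (ENSDARG00000059070, chromosome 24, 20391637 to 20410550), the glycine enzyme, had 10.8, 8.95, 11.5, 8.23 and 12.1 FPKM in mutants, against 14.2, 13.3, 17.5, 14.1 and 18.9 FPKM in siblings. All mutants were below all siblings (log2 fold change -0.55, SE 0.15, limma adjusted p = 0.0315). The threshold was missed once mutant 3 or 5 or sibling 4 or 6 was left out (0.0700 to 0.0784), with an equal FPKM sum outside globin, mitochondrial and rRNA genes (0.0955) and with sibling 2 counted as a mutant (0.105).

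The other cytosolic genes of class II, the class of alanine, glycine and phenylalanine enzymes that shares a fold built on an antiparallel sheet, went in both directions without a call. dars, the aspartate enzyme, averaged 13.1 ± 3.01 FPKM in mutants and 18.9 ± 3.83 FPKM in siblings (SD, n = 5 each), with a limma adjusted p of 0.0836 that passed the threshold only without mutant 4 (0.0437). nars had 95.04 to 132.6 FPKM in mutants and 108.0 to 145.3 FPKM in siblings, and a log2 fold change of -0.29 with an SE of 0.15. hars, the histidine enzyme, had 9.30 to 17.2 FPKM in mutants and 14.3 to 21.6 FPKM in siblings. tars, the threonine enzyme, had the highest positive estimate of the cytosolic set, 0.40 (SE 0.17, limma adjusted p = 0.145), with 10.9, 10.8, 16.4, 10.5 and 11.3 FPKM in mutants, against 6.49, 9.31, 9.27, 7.65 and 11.5 FPKM in siblings. kars, the lysine enzyme, spread widely within both groups, at 19.1 to 47.7 FPKM in mutants and 18.8 to 40.8 FPKM in siblings. sars, the serine enzyme, averaged 20.3 ± 4.46 FPKM in mutants and 19.6 ± 2.64 FPKM in siblings (SD, n = 5 each), a log2 fold change of 0.03 with an SE of 0.16. Of the 10 class II rows 3 fell, and of the 9 class I rows 1 fell, beside 8.74% of all tested rows. In the fit of rows averaging 5 FPKM or more, 755 of 6284 fell. The difference between the classes was not tested.

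Class I enzymes are built on a nucleotide-binding Rossmann fold, and iars was the only one of them that was called. rars, the arginine enzyme, averaged 6.75 ± 1.51 FPKM in mutants and 9.11 ± 1.43 FPKM in siblings (SD, n = 5 each; log2 fold change -0.39, limma adjusted p = 0.141). vars, the valine enzyme, had 8.38 to 12.6 FPKM in mutants and 7.78 to 11.1 FPKM in siblings. yars had 5.43 to 11.6 FPKM in mutants and 4.69 to 9.67 FPKM in siblings, where the highest sibling value was that of sibling 2. cars and qars, for cysteine and glutamine, had log2 fold changes of 0.05 and -0.02 with SEs of 0.16 and 0.17. mars, for methionine, averaged 25.7 ± 7.17 FPKM in mutants and 28.1 ± 3.24 FPKM in siblings (SD, n = 5 each); its position lies wholly inside that of fam210b, so their reads may be mixed. WARS, for tryptophan, averaged 25.9 ± 3.89 FPKM in mutants and 26.3 ± 5.84 FPKM in siblings (SD, n = 5 each). Its row spans only 1778 bases, the shortest of the family, and may hold part of the gene.

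Of the 8 rows of the multi-synthetase complex (eprs, mars, qars, rars, kars, iars, larsb and dars) 1 fell, iars. This is 12.5%, beside 8.74% of all tested rows and 755 of the 6284 rows that averaged 5 FPKM or more. eprs, the enzyme that charges both glutamate and proline tRNAs, had the smallest standard error of the complex. It had 12.2, 10.6, 15.4, 14.1 and 13.5 FPKM in mutants, against 12.7, 13.5, 14.2, 13.2 and 15.1 FPKM in siblings. Its log2 fold change was -0.06 with an SE of 0.13 (limma adjusted p = 0.797). larsb, for leucine, averaged 15.7 ± 3.91 FPKM in mutants and 16.9 ± 3.52 FPKM in siblings (SD, n = 5 each). A second leucine gene outside the list of members, larsa (ENSDARG00000090988), averaged 33.8 ± 6.94 FPKM in mutants and 31.2 ± 5.28 FPKM in siblings. Another row named larsa (ENSDARG00000089031) averaged 1.87 ± 0.864 FPKM in mutants and 3.45 ± 2.06 FPKM in siblings (log2 fold change -0.49, SE 0.40). None of these rows was called.

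One scaffold of this complex did rise. aimp2, a scaffold protein of the complex, had 27.3, 28.3, 42.1, 34.1 and 29.3 FPKM in mutants, against 21.1, 15.1, 19.3, 19.0 and 20.4 FPKM in siblings. All mutants were above all siblings (log2 fold change 0.72, SE 0.15, limma adjusted p = 0.00923), and the call ended only with sibling 2 counted as a mutant (0.0552). The other scaffold genes aimp1 and eef1e1 had log2 fold changes of -0.0043 (SE 0.28) and -0.05 (SE 0.16). They belong to a list of 25 symbols of tRNA charging and quality control, of which 20 matched and 16 rows were tested; aimp2 was the 1 row that rose, beside 5.59% of all tested rows. gatb, a subunit of the enzyme that completes glutamine tRNA in mitochondria, averaged 1.43 ± 0.991 FPKM in mutants and 3.34 ± 1.28 FPKM in siblings and was not called (limma adjusted p = 0.0678, n = 5 each). aarsd1, whose product removes wrongly attached serine from alanine tRNA, averaged 1.74 ± 0.261 FPKM in mutants and 3.01 ± 0.913 FPKM in siblings (SD, n = 5 each) and was not called either (limma adjusted p = 0.0878).

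**Figure D3:**
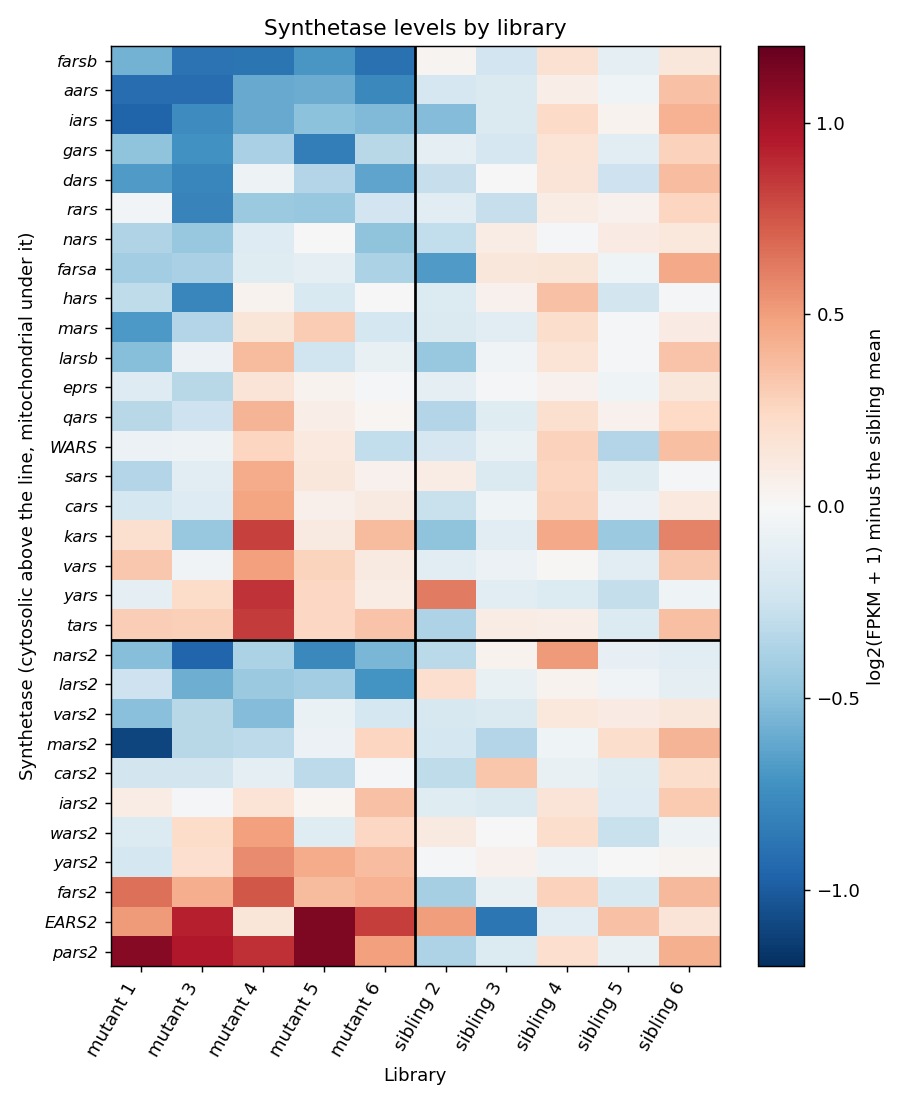
log2(FPKM + 1) of the 31 tested rows minus the sibling mean of each row, by library (columns, mutants left of siblings), with cytosolic genes above the horizontal line; values run from -1.10 to 1.12. farsb, aars, gars, nars2 and lars2 are below the siblings in all 5 mutant libraries, and pars2 is above them in all 5.

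Among mitochondrial enzymes pars2, which charges proline, was the one that rose. pars2 (ENSDARG00000044404, chromosome 6, 30697782 to 30702212) had 3.22, 2.87, 2.64, 3.31 and 1.79 FPKM in mutants, against 0.531, 0.768, 1.28, 0.866 and 1.66 FPKM in siblings. The lowest mutant, number 6, was just above the highest sibling, also number 6. Its means were 2.76 ± 0.609 FPKM in mutants and 1.02 ± 0.448 FPKM in siblings (SD, n = 5 each; log2 fold change 0.91, SE 0.20, limma adjusted p = 0.0110). On the log2(FPKM + 1) scale the change of such a low gene is understated. It was called in 19 of the 21 alternatives that tested it, and the call ended, among others, with sibling 2 counted as a mutant (adjusted p = 0.242).

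fars2 and EARS2 were the next highest of the mitochondrial estimates and were not called. fars2, a single-chain enzyme unlike its cytosolic counterpart, had 8.01, 6.70, 8.54, 6.40 and 6.60 FPKM in mutants, against 3.31, 4.34, 5.91, 4.01 and 6.46 FPKM in siblings. Only sibling 6 reached into the mutant range (log2 fold change 0.53, SE 0.17, limma adjusted p = 0.0607). It passed the threshold under median of ratios scaling (0.0316), quantile normalization (0.0348) and without sibling 6 (0.0374). EARS2, the glutamate enzyme, had 4.92, 6.91, 3.58, 8.05 and 6.38 FPKM in mutants, against 4.87, 1.28, 2.78, 4.30 and 3.61 FPKM in siblings (log2 fold change 0.71, SE 0.27, limma adjusted p = 0.0987). Its row of 4053 bases lies wholly inside akap8l, a gene with a mean of 102.0 FPKM, so its level is uncertain.

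nars2 and lars2, for asparagine and leucine, were lower in every mutant than in every sibling and also missed the threshold. nars2 had 0.874, 0.379, 1.05, 0.563 and 0.821 FPKM in mutants, against 1.13, 1.74, 2.80, 1.48 and 1.43 FPKM in siblings (log2 fold change -0.63, SE 0.20, limma adjusted p = 0.0593). It was called without sibling 2 (0.0477) and without both mutant 1 and sibling 2 (0.0487). lars2 had 1.19, 0.737, 0.921, 0.953 and 0.590 FPKM in mutants, against 1.99, 1.45, 1.69, 1.54 and 1.42 FPKM in siblings (log2 fold change -0.48, SE 0.17, limma adjusted p = 0.0717). Both were called without the mean-variance trend (0.0404 and 0.0391) and with array weights (0.0255 and 0.0442). Over the family 6 of 31 rows had ranges that did not overlap, beside 12.2% of all tested rows: farsb, aars, gars, nars2 and lars2 lower and pars2 higher in mutants.

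The remaining tested mitochondrial rows overlapped between the groups. vars2, for valine, averaged 1.48 ± 0.329 FPKM in mutants and 2.11 ± 0.347 FPKM in siblings (SD, n = 5 each). mars2, for methionine, had 0.919 FPKM in mutant 1 and 2.27 to 3.90 FPKM in the other mutants, against 2.22 to 4.45 FPKM in siblings. yars2 (ENSDARG00000077299), for tyrosine, averaged 4.29 ± 1.02 FPKM in mutants and 3.30 ± 0.133 FPKM in siblings (SD, n = 5 each; log2 fold change 0.28, limma adjusted p = 0.285). wars2, iars2 and cars2, for tryptophan, isoleucine and cysteine, had log2 fold changes of 0.13, 0.12 and -0.18 with SEs of 0.18, 0.17 and 0.18. The rows of cars2, iars2 and mars2 share 16854, 1732 and 91 bases with irs2a, rab3gap2 and med12, so reads may be mixed there too. wars2 and the cytosolic dars lie on chromosome 9, as sf3b1 does, and neither was called.

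Of the rows under the filter, aars2 averaged 0.798 ± 0.565 FPKM in mutants and 0.744 ± 0.274 FPKM in siblings, rars2 0.781 ± 0.496 FPKM in mutants and 0.868 ± 0.229 FPKM in siblings, and sars2 0.621 ± 0.323 FPKM in mutants and 0.661 ± 0.585 FPKM in siblings (SD, n = 5 each). The ranges of all of these overlapped. The rows of rars2 and sars2 share 1521 and 205 bases with slc35a1 (mean 5.09 FPKM) and si:dkey-260j18.2 (mean 7.86 FPKM), so reads may be mixed there. The second yars2 row, ENSDARG00000101563, shares 535 bases with the first, so reads may be split between them. A yars2 row also shares 4925 bases with cdkn1bb (mean 6.24 FPKM), so reads may be mixed with that gene. The second yars2 row was listed at 0 in mutant 1 and had 0.747 FPKM in mutant 4, against 0.628, 0.452 and 0.245 FPKM in siblings 4, 5 and 6. The other mutants and siblings 2 and 3 had under 0.001 FPKM.

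For amino acids with an enzyme in each compartment, the ratio of the cytosolic to the mitochondrial FPKM within a library does not change when each library is scaled by 1 factor. There were 15 such pairs, in which eprs and fars2 each enter 2 times. For leucine larsb was used and larsa was not. Median ratios ran from 1.31 (farsa over fars2 in mutants) to 118.5 (nars over nars2 in mutants). For phenylalanine the ratio of farsb to fars2 was 1.79, 1.68, 1.33, 2.03 and 1.70 in mutants and 6.70, 4.21, 4.19, 4.95 and 3.70 in siblings. The highest mutant ratio was well under the lowest sibling ratio, and for farsa over fars2 the ranges were 1.06 to 1.68 in mutants and 2.09 to 2.99 in siblings. For proline the ratio of eprs to pars2 was 3.71 to 7.54 in mutants and 9.08 to 23.8 in siblings. For isoleucine the ratio of iars to iars2 was 17.4 to 26.2 in mutants and 31.8 to 47.4 in siblings.

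Ratios were higher in all mutants for asparagine and valine. nars over nars2 was 113.3 to 255.4 in mutants and 46.6 to 101.8 in siblings, and vars over vars2 was 5.53 to 10.9 in mutants and 3.37 to 4.71 in siblings. The ratio ranges of the other 9 pairs overlapped. In the 12 pairs with both genes tested, the 2 log2 fold changes had opposite signs in 8 and the same sign in 4. Many of these signs are uncertain. Among the opposite pairs, the estimates of cars, eprs and WARS (0.05, -0.06 and -0.01) were smaller than their SEs (0.16, 0.13 and 0.17). Of these, eprs enters 2 times. The estimates of cars2, iars2 and wars2 (-0.178, 0.121 and 0.131) were also smaller than their SEs (0.185, 0.168 and 0.182). Among the pairs of the same sign this held for larsb and mars (-0.11 and -0.16, SEs 0.19 and 0.19). How often the ratios of other gene pairs separate the groups was not computed, and a shift between the compartments was not tested. No p is given for these ratios, because they were set out with the values of their genes known and the mitochondrial members are low.

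**Figure D4:**
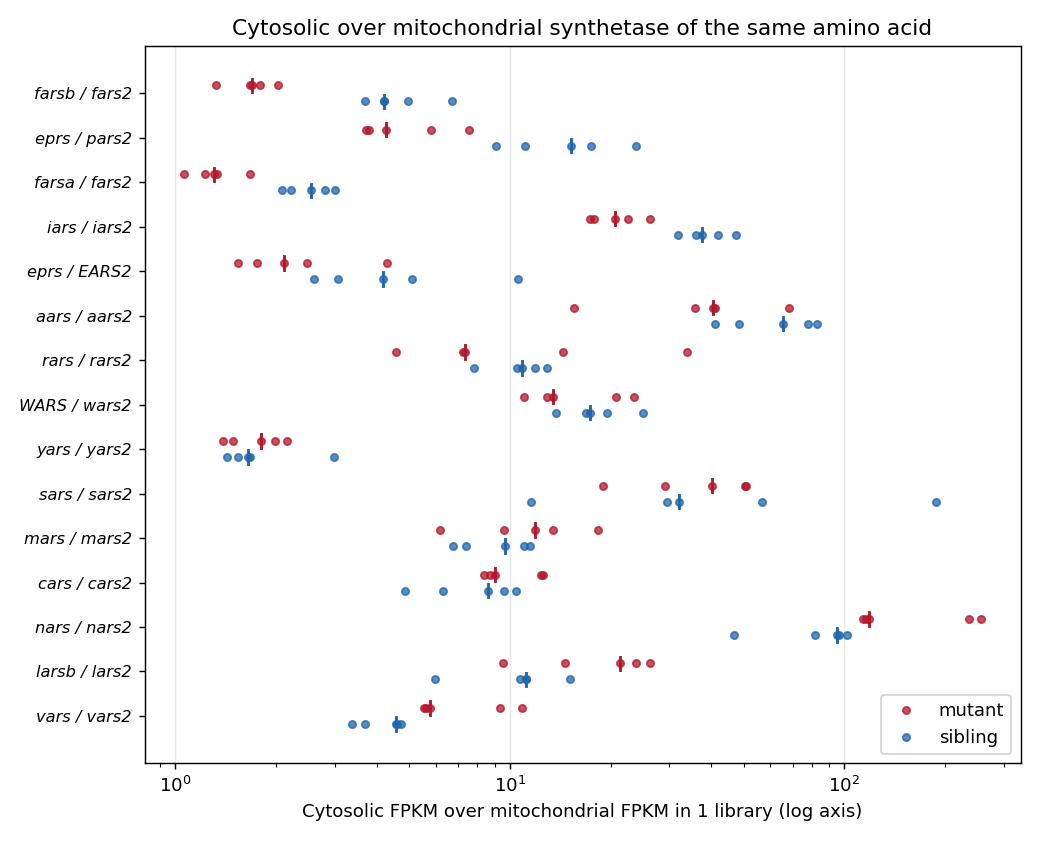
Cytosolic over mitochondrial FPKM of the same amino acid within each library, on a log axis, sorted by the group difference of log2 ratios (most negative on top); dots are libraries (mutant above sibling) and short bars are medians. The mutant ratios lie wholly left of the sibling ratios for farsb, farsa, iars and the pair of eprs with pars2, and wholly right for nars and vars.

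Genes of the integrated stress response, the pathway by which ATF4 acts on synthetase genes in mammals, were set beside the family. Of 34 listed symbols 32 matched and 29 rows were tested: 5 fell and 0 rose. That is 17.2% called, all of them falling. Of all tested rows 14.3% were called in either direction and 8.74% fell. The median log2 fold change of the list was -0.34. Both zebrafish copies of the factor fell: atf4a had 94.9, 88.5, 91.7, 103.9 and 96.3 FPKM in mutants, against 161.2, 141.3, 133.4, 164.4 and 199.1 FPKM in siblings. Mutants varied little and lay below all siblings (log2 fold change -0.73, SE 0.14, limma adjusted p = 0.00545). atf4b averaged 40.2 ± 7.93 FPKM in mutants and 71.6 ± 13.5 FPKM in siblings (SD, n = 5 each; log2 fold change -0.82, limma adjusted p = 0.00994).

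chac1, a glutathione-degrading enzyme that ATF4 induces in mammals, averaged 22.0 ± 2.34 FPKM in mutants and 44.3 ± 8.44 FPKM in siblings (SD, n = 5 each; log2 fold change -0.96, limma adjusted p = 0.00244). phgdh and psph, the first and last enzymes of serine synthesis, had log2 fold changes of -1.15 and -0.91 (limma adjusted p = 0.00801 and 0.00536). asns, the asparagine synthetase gene that responds to amino acid shortage, averaged 10.6 ± 1.23 FPKM in mutants and 12.0 ± 1.89 FPKM in siblings (SD, n = 5 each) and was not called (limma adjusted p = 0.527). trib3, another target of ATF4 in mammals, averaged 17.8 ± 14.0 FPKM in mutants and 17.0 ± 7.55 FPKM in siblings and was not called (limma adjusted p = 0.913, n = 5 each). With sibling 2 counted as a mutant each of the 5 calls ended, at adjusted p of 0.0921 (atf4a), 0.0553 (atf4b), 0.101 (chac1), 0.216 (phgdh) and 0.0767 (psph). No relation between these genes and the synthetases was tested.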

How the data were processed

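Gata1-positive cells of zebrafish embryos were sequenced after ribosomal RNA depletion with a stranded kit, per the labels' protocols. The submitters' processing notes name the GRCz10 build, Cufflinks 2.2.1, STAR 2.4.2a, Trim Galore and Picard; nothing states how strand was used. The authors deposited FPKM in 1 table of 32233 rows, per the file headers; all per-sample columns matched a title. Starts are those of the table plus 1, after which 37 of 37 mitochondrial genome rows matched the reference gene table.

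Rows were tested with limma 3.58.1 in R 4.3.3 (eBayes, trended by mean) on log2(FPKM + 1), for rows averaging 1 FPKM or more, with Benjamini-Hochberg adjustment over all of them. The members, their compartments and the gene lists were chosen with earlier results of these data known; amino acid pairs were set out after values were seen. All members are accounted for, and of the lists on tRNA charging and the stress response up to 4 genes by smallest p; atf4b, asns, trib3, aimp1, eef1e1 and larsa were named after their values were seen. The step was tested on simulated data. Python 3.11.15, pandas 2.3.3, numpy 2.4.6 and matplotlib 3.10.9 did the rest. Alternatives were other pseudocounts, filters, scalings and weights, no trend, the genotype tag of sibling 2, a block by replicate number, and libraries left out. 1 gene of the tRNA charging list is not reported here. Sequences and splice junctions are not analysed here.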

Additional observations from a re-analysis of the deposited data

Results flagged for a closer look

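In 4 of 70 groups of 5 libraries, 1 library stood far from the rest of its group in FPKM of a synthetase row; chance gives about 1 such group in 20. tars had 16.4 FPKM in mutant 4, against a next value of 11.3 FPKM in its group. aars2 had 1.80 FPKM in mutant 4, against a next value of 0.625 FPKM. The second yars2 row had 0.747 FPKM in mutant 4 and under 0.001 FPKM in the other mutants. yars had 9.67 FPKM in sibling 2, against a next value of 5.68 FPKM among siblings, and sibling 2 is the library whose genotype tag disagrees with its title.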

How the results depend on the processing

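Over 22 alternatives and 31 tested rows, 670 log2 fold changes were recomputed, of which 641 kept their side of the threshold, 17 lost a call, 12 gained one and 0 reversed a called value; uncalled values changed sign in 24 cases, all in WARS, qars, cars, sars, eprs and kars. The count of falling cytosolic rows was 4 and fell to 2 with sibling 2 counted as a mutant; leaving out 1 library gave 2 to 4, with 2 without mutant 3, sibling 4 or sibling 6. The count of rising mitochondrial rows was 1, and became 2 under median of ratios scaling, quantile normalization and array weights, and 0 with sibling 2 counted as a mutant and under a filter of 5 FPKM on the mean, where pars2 was not tested; leaving out 1 library gave 1 to 2. The count of falling mitochondrial rows was 0, and became 2 without the mean-variance trend, 2 with array weights and 1 without both mutant 1 and sibling 2; leaving out 1 library gave 0 to 1. Over all genes 727 rows rose and 1137 fell; with sibling 2 counted as a mutant 300 rose and 461 fell, and 755 fell under the filter of 5 FPKM. Leaving out 1 library gave 524 to 735 rising and 741 to 1238 falling rows. Median of ratios scaling moved the split to 944 rising and 981 falling rows, and quantile normalization to 987 and 1008. The causes of these shifts were not tested.

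Same-numbered libraries 3, 4, 5 and 6 had correlations of -0.03, 0.09, 0.10 and 0.15 of their deviations from the group means, so the numbers were not taken as pairs. With the replicate number as a block, 5 cytosolic rows fell, rars joining the 4, and 0 mitochondrial rows rose (pars2 adjusted p = 0.0798). Of the mitochondrial rows, 4 of 15 were under 1 FPKM on average and were not tested; absolute depth is unknown. No count test was possible on FPKM.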
